A study of Mus musculus with 42 samples.

Results

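The genes described here are 10 members of the fibroblast growth factor (FGF) pathway: the ligands Fgf3, Fgf4, Fgf5 and Fgf8, the receptors Fgfr1 and Fgfr2, and the feedback inhibitors Spry2, Spry4, Spred2 and Dusp6. They were taken by gene symbol from an expression table of 12988 genes, in which all 10 were measured, and were chosen with their expression differences between groups already known. Their DNA methylation was read from the 431 of 141251 tiles of 100 bp that lay within 2 kb of the gene spans given in the expression table. The study exposed C57BL/6J male mice, 8 weeks old at the start, for 67 days to a vehicle (control), to 2.5 mg/kg/day (low) or to 25 mg/kg/day (high) of di(2-ethylhexyl) phthalate (DEHP), a plasticizer, and mated them with females that had not been exposed. The males alone were treated, and their offspring were collected at embryonic day 7.5, labelled as male, of the cross C57BL/6 * DBA/2J. The expression table holds 2 libraries of offspring per group (6 in all, RNA sequencing), and the one for methylation has 3 per group (9 in all, reduced representation bisulfite sequencing, RRBS, which reads cytosine methylation mainly in CpG-rich fragments). The labels describe 42 samples from embryo, extra-embryonic tissue and sperm, while the columns of both tables give only treatment and number, so the tissue of a column is not stated here. For methylation that includes sperm, labelled as C57BL/6 at 14 weeks, so a methylation library may be of the exposed males themselves or of their offspring. The labels list more RRBS sperm samples per group than the 3 columns, while those at embryonic day 7.5 are listed in runs of 3 per group. These numbers match an offspring tissue better than the whole sperm set, but no label ties a column to a tissue. The labels do not say whether a library is 1 embryo or a pool, nor whether offspring libraries of a group come from different fathers. All p-values therefore measure only the spread between these libraries, which may be technical.

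FGF ligands bind receptor tyrosine kinases together with heparan sulfate and switch on the Ras to ERK cascade. The cascade induces its own brakes: Sprouty and Spred proteins act on Ras and Raf, and Dusp6 is a phosphatase that inactivates ERK. In the gastrulating mouse embryo, Fgf5 marks the epiblast, Fgf4 and Fgf8 are made in the primitive streak and are needed there for cells to migrate away as mesoderm, Fgfr1 is the main receptor of the epiblast and streak, and Fgfr2 is the receptor through which FGF4 keeps the trophoblast stem cells of the extra-embryonic ectoderm.

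Promoter sequences from RefSeq (GRCm38.p6) were matched for 7 of the 10 members. The 4 windows shown are those in which methylation tiles were measured, with every CpG, the letters whose methylation is at issue, in capitals. They run 5′ to 3′ on the plus strand, from upstream of the gene start to just past it: Fgf3 at chr7:144838362-144838661, Fgf4 at chr7:144861136-144861435, Fgf5 at chr5:98253934-98254233 and Dusp6 at chr10:99262981-99263280.
Fgf3: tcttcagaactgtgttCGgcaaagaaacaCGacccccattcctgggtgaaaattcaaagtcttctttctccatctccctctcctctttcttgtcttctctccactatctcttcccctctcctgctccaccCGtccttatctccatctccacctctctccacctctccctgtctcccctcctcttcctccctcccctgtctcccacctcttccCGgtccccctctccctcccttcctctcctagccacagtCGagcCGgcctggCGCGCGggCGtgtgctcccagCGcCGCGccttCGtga
Fgf4: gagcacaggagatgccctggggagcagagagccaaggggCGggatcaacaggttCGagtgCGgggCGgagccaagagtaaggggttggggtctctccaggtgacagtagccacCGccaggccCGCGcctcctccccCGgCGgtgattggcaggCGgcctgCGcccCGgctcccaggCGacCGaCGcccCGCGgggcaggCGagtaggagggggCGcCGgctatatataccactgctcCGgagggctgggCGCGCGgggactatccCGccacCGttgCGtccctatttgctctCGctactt
Fgf5: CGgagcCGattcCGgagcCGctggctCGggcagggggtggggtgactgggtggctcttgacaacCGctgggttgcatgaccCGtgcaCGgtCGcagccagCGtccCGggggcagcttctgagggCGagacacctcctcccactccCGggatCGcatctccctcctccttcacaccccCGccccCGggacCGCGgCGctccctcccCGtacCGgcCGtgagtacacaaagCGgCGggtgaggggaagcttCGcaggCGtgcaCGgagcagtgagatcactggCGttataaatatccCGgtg
Dusp6: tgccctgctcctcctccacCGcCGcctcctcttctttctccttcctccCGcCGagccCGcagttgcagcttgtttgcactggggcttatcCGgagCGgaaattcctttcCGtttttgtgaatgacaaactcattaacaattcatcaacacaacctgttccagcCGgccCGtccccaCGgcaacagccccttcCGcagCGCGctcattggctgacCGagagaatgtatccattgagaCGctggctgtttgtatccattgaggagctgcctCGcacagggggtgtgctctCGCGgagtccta
The Fgf4 window held 28 CpGs and the Fgf5 window 29, above the upper quartile of 20 over 32851 promoter windows of the same length. The Dusp6 window held 19 and the Fgf3 window 14, against a median of 7 over all of them. In Fgf3 the CpGs lie mostly in the last stretch, around and after the start, behind a long run of c and t. Of the other matched members, Spry2 held 28 CpGs, Spred2 17 and Fgfr2 only 4. Both strands of the 7 windows were searched for an ETS motif (CCGGAAG, in 8.86% of all windows), a TCF/LEF motif (CTTTGAT, 3.73%), a T-box motif (AGGTGTGA, 1.28%) and an AP-1 motif (TGANTCA, 7.81%). None of the 7 windows held any of these 4 strings, which says only that the letters are not in these windows.

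Expression is given in CPM (read counts scaled to a common library total), which is not scaled by gene length, so levels are compared between libraries and not between genes. Values came in whole multiples of 1 step per library (within 0.01 of a step). A step was worth 0.00650 and 0.00611 CPM in the high libraries and 0.00515 to 0.00538 CPM in the other 4; whether a step is 1 read is not given in the sources used here. Marker genes showed epiblast, streak and endoderm RNA in every library. Summed over 7 epiblast genes other than Fgf5, the level was 2115 and 2534 CPM in controls, 2802 and 2181 in low, and 1980 and 1703 in high. Over 9 streak and mesoderm genes other than Fgf8 it was 670 and 711, 806 and 703, and 596 and 499 CPM. Both sums were therefore lower in the high libraries than in any other. Within the streak list, Eomes, Lhx1, Mixl1 and Snai1 were lowest in both high libraries, while T, Tbx6, Evx1, Mesp1 and Mesp2 were not. Tbx6 was at 29.1 and 19.8 CPM in controls, 14.9 and 22.9 in low, and 30.2 and 25.0 in high. Over 12 genes of visceral and parietal endoderm the sum was 3060 and 1542 CPM in controls, 2330 and 2749 in low, and 2543 and 3191 in high. Trophoblast markers were low but present in 10 of 12 genes (81.2 to 167 CPM summed, with Elf5 and Tpbpa not in the table), 2 of 6 decidual genes summed to at most 6.28 CPM, and of 4 blood genes only Gata1 was in the table (at most 2.69 CPM).

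The ligands did not share 1 pattern. Fgf3 and Fgf4 stood higher in the low group than in both other groups, while Fgf5 was lowest in the high group. For Fgf3 (ENSMUSG00000031074, chr7:144838083-144844436), which signals in the streak and later in the hindbrain and ear region, the controls were at 25.7 and 20.8 CPM, the low libraries at 34.0 and 30.2, and the high libraries at 22.9 and 24.6. Both low libraries thus lay above the other 4, and control and high overlapped. The difference of mean log2(CPM + 1), used for all differences here, was 0.45 (SE 0.11) for low against control, 0.04 (SE 0.11) for high against control and -0.42 (SE 0.11) for high against low. Fgf4 (ENSMUSG00000050917, chr7:144847367-144865243) is its neighbour on the chromosome and was ordered the same way over the 6 libraries. Its values were 10.2 and 7.63 CPM in controls, 15.6 and 11.8 in low, and 7.81 and 9.14 in high. The difference was 0.57 (SE 0.17) for low against control, -0.06 for high against control and -0.62 for high against low, again with only the control and high groups overlapping. The span that the table gives for Fgf4 starts before RefSeq's (144861386-144865245) and takes in part of the stretch between the neighbours.

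Fgf5 (ENSMUSG00000029337, chr5:98254184-98277030) was at 34.7 and 51.3 CPM in controls, 65.9 and 33.9 in low, and 31.5 and 23.1 in high. Both high libraries lay below the other 4, but the low pair spanned the whole control range, and the highest value of any library was low 1. The difference was 0.16 (SE 0.31) for low against control, -0.63 (SE 0.31) for high against control and -0.79 (SE 0.31) for high against low. Its SE was the largest of the 10 members. Fgf8 (ENSMUSG00000025219, chr19:45736798-45742915) was at 18.4 and 25.7 CPM in controls, 24.0 and 17.8 in low, and 19.4 and 16.3 in high. Its groups overlapped in all 3 comparisons, with differences of -0.07, -0.28 and -0.21 (SE 0.18 each) for low against control, high against control and high against low. In these bulk libraries fewer cells of a type and less RNA per cell cannot be told apart. The sums of epiblast and streak markers were lowest in the same high libraries, though single streak genes such as T, Tbx6 and Evx1 were not. The part of these markers in the ligand values was not tested.

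**Figure D1:**
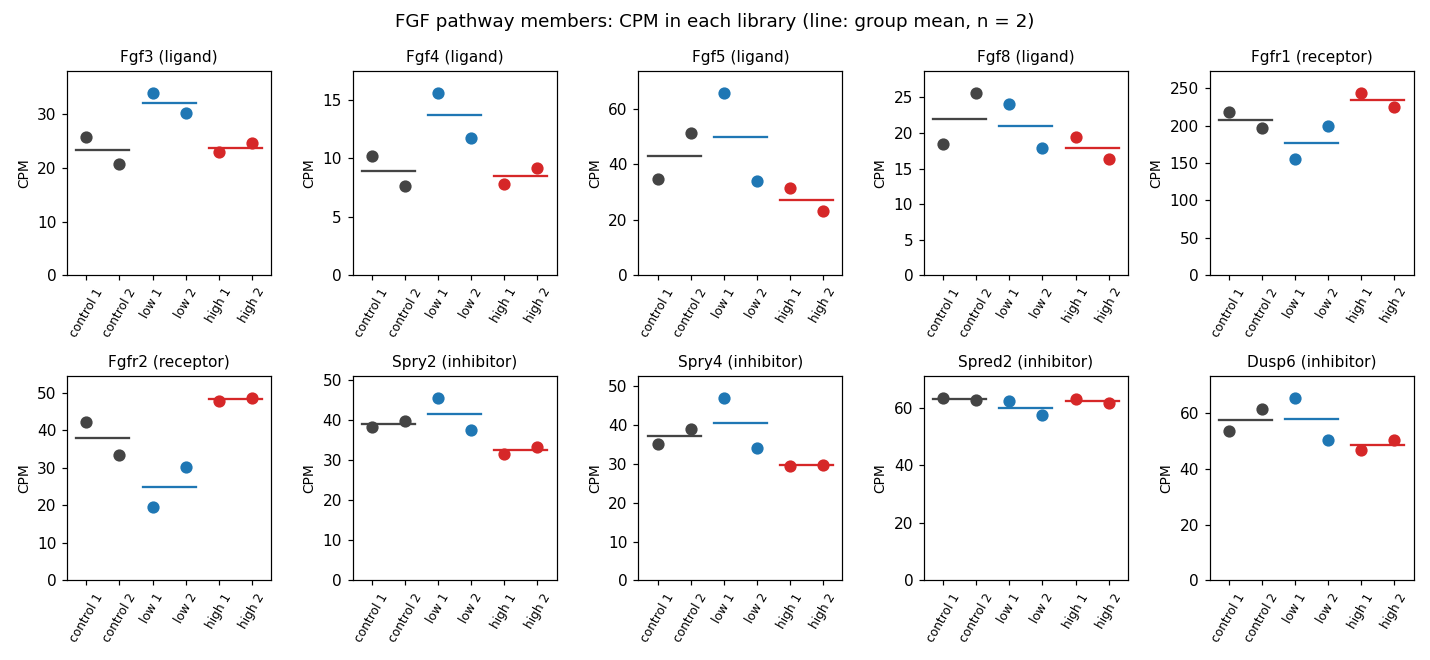
CPM of the 10 members in each of the 6 libraries (points; 2 per group) with the group mean (line), each panel on its own axis from 0. Fgf3 and Fgf4 have both low libraries on top (34.0 and 30.2 CPM for Fgf3), Fgfr1 and Fgfr2 have both high libraries on top (47.9 and 48.7 CPM for Fgfr2), and Spry2 and Spry4 have both high libraries at the bottom.

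Both receptors were highest in the high group and had their lowest value in the library low 1. Fgfr2 (ENSMUSG00000030849, chr7:130162451-133123350 by the expression table) was at 42.3 and 33.4 CPM in controls, 19.5 and 30.3 in low, and 47.9 and 48.7 in high. The 3 groups did not overlap in any comparison: low lay below control and control below high. The difference was -0.61 (SE 0.19) for low against control, 0.35 for high against control and 0.96 for high against low, the last a ratio of 1.95 and the largest difference among the members. The span the table gives for Fgfr2 is 2961 kb, against 104 kb in RefSeq (130162451-130266808), and takes in 22 other genes of the table. How reads in those genes were assigned, and whether strand was used, is not given in the sources used here. Fgfr1 (ENSMUSG00000031565, chr8:25513654-25575718) was at 219 and 197 CPM in controls, 155 and 199 in low, and 244 and 224 in high. Both high libraries lay above the other 4, by 0.17 (SE 0.12) against control and 0.41 (SE 0.12) against low, while low and control overlapped (-0.24). The sum of endoderm markers was highest in the library high 2 and lowest in control 2. The sum of trophoblast markers was 123 and 81.2 CPM in controls, 167 and 111 in low, and 122 and 159 in high. Its genes did not move together: Plet1 (43.6 CPM) and Prl3d1 (28.4 CPM) were highest in low 1. Cdx2 was at 44.1 and 29.6 CPM in controls, 13.3 and 34.2 in low, and 50.8 and 52.6 in high. Cdx2 and Sox21 were thus lowest in low 1 and highest in the high libraries, as both receptors were. The other trophoblast genes did not have that order, Esrrb (3.17 CPM in low 1) and Hand1 (42.6 CPM in low 1) among them. Of the neural plate markers, Sox1 had it too (0.242 CPM in low 1, 2.25 and 2.88 in high). So did Hesx1 (2.69 CPM in low 1, 4.87 and 5.48 in high), while Six3 and Zic2 did not. The part of these marker genes in the receptor values was not tested.

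Of the 4 feedback inhibitors, Spry2 and Spry4 were lowest in the high group, Dusp6 leaned the same way, and Spred2 hardly moved. Spry2 (ENSMUSG00000022114, chr14:105891947-105896819) was at 38.3 and 39.9 CPM in controls, 45.5 and 37.5 in low, and 31.7 and 33.2 in high. Both high libraries lay below the other 4, by -0.26 (SE 0.09) against control and -0.34 against low, and low and control overlapped (0.08). Spry4 (ENSMUSG00000024427, chr18:38586247-38601415) was at 35.2 and 38.9 CPM in controls, 47.0 and 34.2 in low, and 29.6 and 29.8 in high. The 6 libraries came in the same order as for Spry2, and the difference was -0.31 (SE 0.13) for high against control, -0.42 for high against low and 0.11 for low against control. Dusp6 (ENSMUSG00000019960, chr10:99263231-99267489), which acts on ERK itself, was at 53.7 and 61.5 CPM in controls, 65.5 and 50.4 in low, and 46.8 and 50.6 in high. The high libraries lay below both controls (-0.23, SE 0.12), but high and low overlapped, since low 2 fell between the high libraries. Spred2 (ENSMUSG00000045671, chr11:19924375-20024026) stayed between 57.5 and 63.4 CPM over all 6 libraries. It was at 63.4 and 62.6 CPM in controls, 62.2 and 57.5 in low and 63.0 and 61.5 in high, and its differences were -0.07, -0.02 and 0.06 (SE 0.06 each) for low against control, high against control and high against low.

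**Figure D2:**
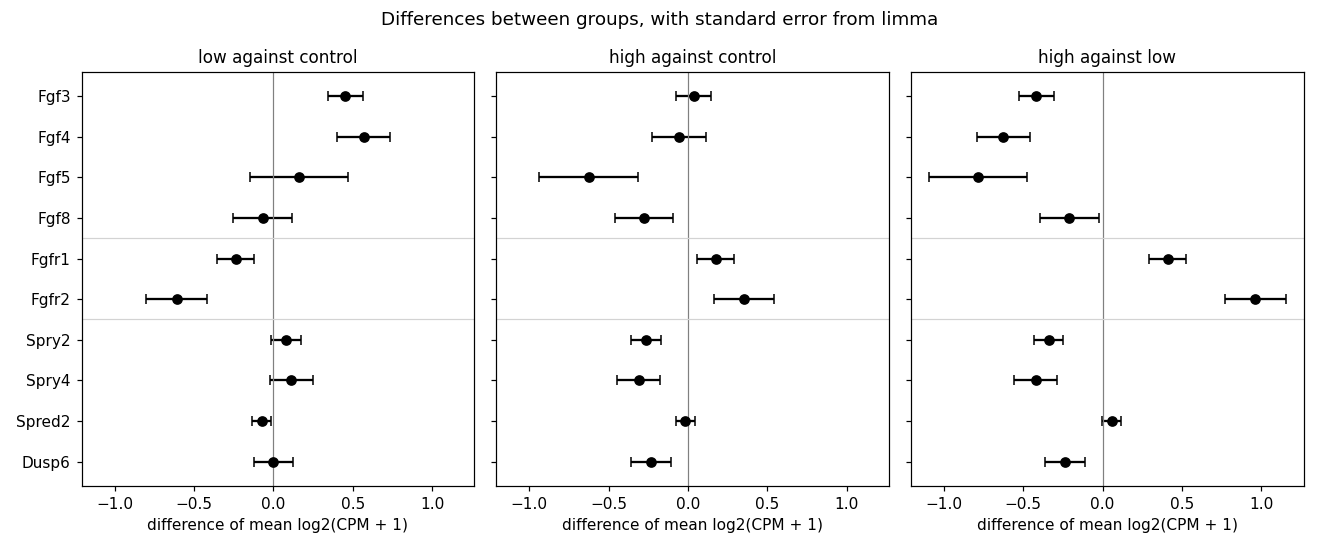
Difference of mean log2(CPM + 1) between groups for each member (point) with the standard error from limma (bar), grouped as ligands, receptors and inhibitors. In high against low (right) both receptors are above 0 (0.41 for Fgfr1 and 0.96 for Fgfr2), all 4 ligands below 0, and Spred2 at 0.06.

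With limma fitted on all 12987 genes that passed a filter of 1 CPM in 2 libraries, the number of members with an adjusted p under 0.05 was 0 of 10 in each comparison. Over all genes the percentage called was 0.0% in low against control, 0.0077% higher and 0.0% lower in high against control, and 0.0% in high against low. At an unadjusted p under 0.05 there were 3, 1 and 7 members in low against control, high against control and high against low, where 4.87%, 5.29% and 7.91% of all genes reached it. The groups did not overlap for 4, 6 and 7 of the 10 members, against 35.2%, 35.6% and 33.6% of all genes. Of these, 2, 2 and 2 were higher and 2, 4 and 5 lower, where 18.0%, 23.5% and 21.8% of all genes were higher and 17.2%, 12.1% and 11.8% lower. A positive difference was found for 6, 3 and 3 members, and for 51.0%, 58.6% and 57.5% of all genes. The median member difference was 0.04, -0.15 and -0.29, against 0.00, 0.02 and 0.01 over all genes. The members were chosen on these same comparisons, so these counts describe the choice and nothing is read from them. The comparisons also share libraries: low against control and high against control use the same 2 controls. The spread within the low pair was wide for several members, with Fgfr2 at 19.5 and 30.3 CPM and Fgf5 at 65.9 and 33.9. Without the library low 2, 1 member was called in low against control (Fgfr2, -0.92) and 5 in high against low (Fgf5, Fgfr1, Fgfr2, Spry2 and Spry4). That fit rests on 1 low library, assumed to vary like the others, and calls 65 and 291 genes over the whole table. Without the library low 1, none was called, and the differences of high against low shrank to 0.66 for Fgfr2, 0.23 for Fgfr1, -0.32 for Fgf5 and -0.20 for Spry4.

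Across the 6 libraries the members moved in sets that follow their roles in part. The Pearson r of log2(CPM + 1) was 0.98 for Fgf3 with Fgf4, 0.98 for Spry2 with Spry4 and 0.97 for Fgfr1 with Fgfr2. It was 0.95 for Fgf5 with Spry4 and 0.94 for Spry4 with Dusp6, but -0.94 for Fgfr1 with Spry4 and -0.92 for Fgfr2 with Spry4. Other pairs within a role were far apart. Fgf8 had an r of -0.05 with Fgf3 and 0.09 with Fgf4, but 0.91 with Fgf5, which had 0.35 with Fgf3 and 0.47 with Fgf4. Spred2 had 0.006 with Spry2, 0.10 with Spry4 and 0.24 with Dusp6. These values are descriptions over 6 points that share libraries and group differences. The library low 1 had the highest value for Fgf3, Fgf4, Fgf5, Spry2, Spry4 and Dusp6 and the lowest for both receptors, and it also had the highest sum of epiblast, of streak and of trophoblast markers. Of the trophoblast list, its Plet1 was at 43.6 CPM and its Prl3d1 at 28.4 CPM, against at most 7.65 and 9.72 CPM in the other libraries. Tfap2c (19.4 CPM) and Ascl2 (5.05 CPM) were also highest in low 1. Cdx2 (13.3 CPM), Bmp4 (5.57 CPM) and Sox21 (1.64 CPM), from the same list, were instead lowest in low 1, so the list had no shared direction there. The part of those marker sums in the member values was not tested.

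**Figure D3:**
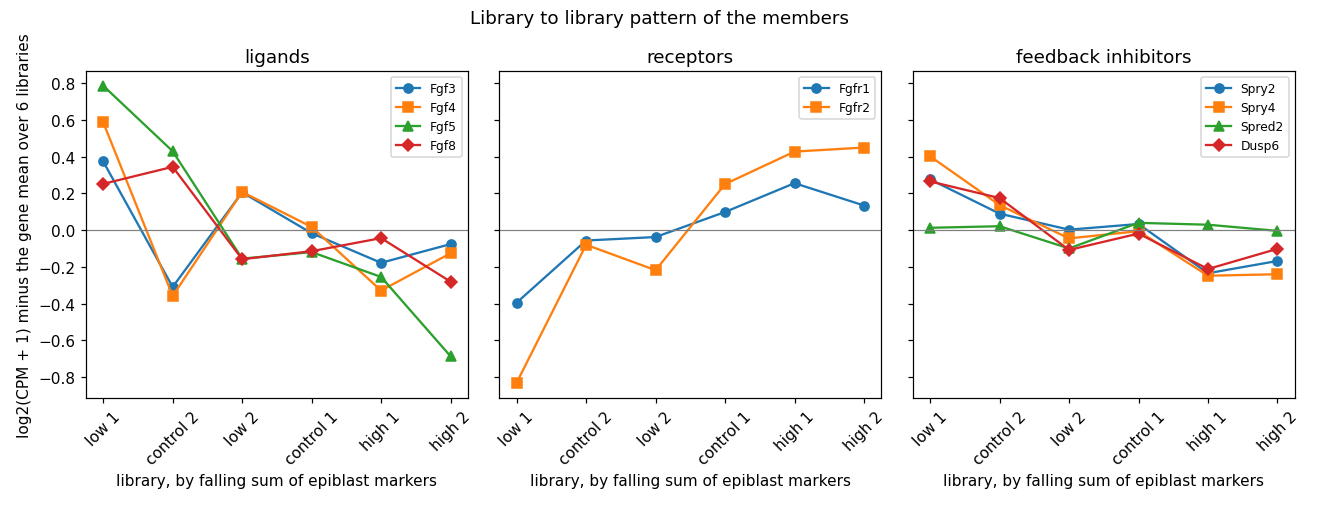
Log2(CPM + 1) of each member in each library minus that gene's mean over the 6 libraries, with libraries placed by falling sum of 7 epiblast markers (2802 CPM in low 1 to 1703 in high 2); lines only join a gene's points. The receptors are lowest in low 1 and highest in the high libraries, Fgf5, Spry2, Spry4 and Dusp6 are highest in low 1, and Spred2 is nearly flat.

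The genes whose pattern was most like a member's were looked for among 257 genes outside the pathway with at least 10 CPM and an SD of at least 0.25. Predicted genes (Gm or Rik names) were left out. Closest to Fgf5 was Tdgf1 (Cripto, the Nodal co-receptor of the epiblast), with r = 0.998 over the 6 libraries. Tdgf1 was at 89.9 and 140.1 CPM in controls, 167 and 89.5 in low, and 81.4 and 60.02 in high, the same order as Fgf5. L1td1 and Spon1 followed (both r = 0.99), and 26 of the 257 genes exceeded r = 0.9 with Fgf5. For Fgf8 the nearest were Myb (0.96), Hhex (0.95) and Otx2 (0.94), the last a transcription factor of the epiblast and anterior embryo. For Dusp6 they were Zic5 (0.97), Skil (0.96) and Irs4 (0.94). Of the 257 genes, 7 exceeded r = 0.9 with Fgf8 and 8 with Dusp6. Fgf3 and Fgf4 had no gene above 0.9. For both the nearest was Mesp1, a transcription factor of nascent mesoderm (0.88 each), at 31.1 and 33.2 CPM in controls, 58.8 and 50.7 in low, and 31.4 and 31.2 in high. Like Fgf3 and Fgf4, Mesp1 thus had its 2 low libraries above the other 4.

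Of 99 other genes of the pathway, in 6 lists, 79 were measured and 0 were called in any comparison. The lists were chosen with earlier results of these data known, and they were read in the same libraries as the members. Counts here and for each list below are therefore descriptions, and nothing is read from them. Unadjusted p under 0.05 was reached by 8, 8 and 20 of the 79 in low against control, high against control and high against low, where 4.87%, 5.29% and 7.91% of all genes reached it. The groups did not overlap for 22, 26 and 35 of the 79 (27.8%, 32.9% and 44.3%), against 35.2%, 35.6% and 33.6% of all genes. Among the other ligands 6 of 18 were measured, all of those named at low levels. Fgf17, a relative of Fgf8, was at 2.14 and 2.08 CPM in controls, 1.57 and 1.64 in low and 2.05 and 1.86 in high. Fgf11 was at 1.42 and 1.41 CPM in high, below its other 4 libraries, and Fgf14 at 0.793 and 0.929 CPM in high, also below them. For Fgf14 the nearest libraries were almost level, at 0.929 CPM in high 2 and 0.931 CPM in low 1. Neither Fgf11 nor Fgf14 was called (adjusted p = 0.866 each in limma, high against control).

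Among 7 other measured receptors and coreceptors, 6 had both high libraries above both low libraries, with a median difference of 0.33 in high against low against 0.01 over all genes. Over all genes 21.8% had both high libraries above both low ones. None of the 7 was called. Fgfr3, a receptor of the same family, was at 26.1 and 21.7 CPM in controls, 11.96 and 25.4 in low, and 28.5 and 31.0 in high. As with Fgfr1 and Fgfr2, the library low 1 was lowest and the high libraries were highest (0.73, SE 0.28, for high against low; limma adjusted p = 0.564). Fgfrl1, a receptor that lacks the kinase domain, was at 10.98 and 10.5 CPM in controls, 9.91 and 11.4 in low, and 13.7 in both high libraries (0.33, SE 0.09; adjusted p = 0.385). Flrt2, a transmembrane partner of FGF receptors, was at 5.29 and 3.77, 2.25 and 3.59, and 5.24 and 5.71 CPM in the same order of groups (0.74, SE 0.19; adjusted p = 0.354). Only Fgfbp1, a carrier protein for FGFs, had overlapping high and low groups.

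Of 20 genes for heparan sulfate synthesis and proteoglycans, all measured, 16 had a positive difference in high against low, with a median of 0.07, and in 7 both high libraries were above both low ones. Over all genes 57.5% had a positive difference and 21.8% had such a separation. Hs6st1, a heparan sulfate 6-O-sulfotransferase, was at 44.0 and 45.4 CPM in controls, 36.8 and 39.6 in low, and 45.4 and 47.1 in high. Ndst1, which makes the first modification of the chain, was at 32.2 and 28.1, 24.7 and 26.8, and 33.1 and 31.0 CPM. Both genes thus had their low libraries below the other 4, and neither was called (limma adjusted p = 0.339 and 0.404 in high against low). The proteoglycan Sdc4 was instead highest in high, at 15.7 and 18.5 CPM against 13.7 and 11.03 in controls and 11.9 and 13.8 in low.

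The 21 adaptors and members of the Ras to ERK cascade had a median difference of 0.00 in high against low, with 10 positive and 11 negative. Frs2, the adaptor that docks on FGF receptors, was at 42.3 and 42.5 CPM in controls, 36.8 and 38.6 in low, and 41.6 and 45.2 in high. Gab1, an adaptor downstream of Frs2, was at 36.8 and 36.2 CPM in high, above the 26.6 to 32.9 CPM of the other libraries. Rps6ka3, a kinase activated by ERK, was at 27.9 and 27.1 CPM in controls, 22.6 and 24.9 in low, and 27.2 and 34.5 in high. So all 3 stood higher in high than in low, by 0.20, 0.28 and 0.35, and none was called (lowest limma adjusted p = 0.441).

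The other feedback inhibitors (13 of 14 measured) did not share a direction, with 7 positive and 6 negative in high against low. Spred3, from the family of Spred2, had an order like that of Spry2: 22.9 and 25.1 CPM in controls, 29.0 and 22.6 in low, and 20.7 and 19.0 in high. Dusp14 stood the other way, at 2.31 and 2.05 CPM in high against at most 1.62 elsewhere. Lrig1, an inhibitor of receptor tyrosine kinases, was at 37.9 and 39.8 CPM in controls, 27.0 and 33.6 in low, and 44.4 and 37.2 in high. None passed the test, the adjusted p in high against low being 0.468 for Spred3, 0.398 for Dusp14 and 0.403 for Lrig1 in limma.

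Among the targets that FGF and ERK signalling induces (12 of 16 measured), the median difference in high against low was -0.08, with 5 positive and 7 negative. Etv1, an ETS factor, was at 16.4 and 17.0 CPM in controls, 20.7 and 16.0 in low, and 12.7 and 11.5 in high. Etv5, of the same subfamily, was at 129 and 131, 174 and 127, and 115 and 107 CPM. Snai1, which drives the epithelial to mesenchymal transition in the streak, was at 41.2 and 36.7, 44.7 and 36.9, and 33.4 and 30.5 CPM. All 3 had both high libraries below the other 4 and the highest value in low 1, as Spry2, Spry4 and Fgf5 did. Of the 12 targets, 3 had both high libraries below both low ones and 3 above, against 11.8% and 21.8% of all genes. One of the higher was Tbx6, at 30.2 and 25.0 CPM in high against 14.9 and 22.9 in low. The differences of high against low were -0.55 (SE 0.12) for Etv1, -0.42 for Etv5 and -0.34 for Snai1. None of the 12 targets was called (limma adjusted p = 0.308, 0.435 and 0.440 for Etv1, Etv5 and Snai1).

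The methylation of the 431 tiles ranged from tile means of 0.0654% to 96.2%, with 197 tiles under 10% and 56 over 80%. Because of the long Fgfr2 span, 280 of them counted for that gene, and 265 of these lay outside the RefSeq span and its 2 kb flanks. Within the RefSeq spans of the 10 genes and 2 kb flanks there were 159 tiles, which are used where a gene is described. The mean of these was 28.8, 27.8 and 28.9% in controls, 28.3, 28.3 and 28.9% in low, and 28.3, 28.3 and 29.0% in high, so the groups overlapped. The table gives percentages with no coverage, so the depth behind a tile is unknown.

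Near the gene starts methylation was low in all libraries, and its mean per gene did not separate the groups. Within 1 kb of the RefSeq start there were 50 tiles over 7 genes, and the gene means ran from 1.17% for Spry2 (4 tiles) to 15.3% for Fgf4 (10 tiles). Between these lay Spred2 at 4.87%, Fgfr2 at 7.54%, Fgf3 at 7.69%, Dusp6 at 8.57% and Fgf5 at 8.80%. The groups overlapped for all 7 genes in all 3 comparisons. Farther than 1 kb the means were higher for each of the 7, from 3.23% for Spry2 to 61.2% for Spred2 and 83.7% for the single such tile of Fgf5. In the promoter windows printed above, the tiles had means of 6.28% for Fgf3 (1 tile), 7.46% for Fgf4 (2), 11.1% for Fgf5 (4) and 7.35% for Dusp6 (3). The CpG-rich windows shown were thus mostly unmethylated in control, low and high libraries alike.

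**Figure D4:**
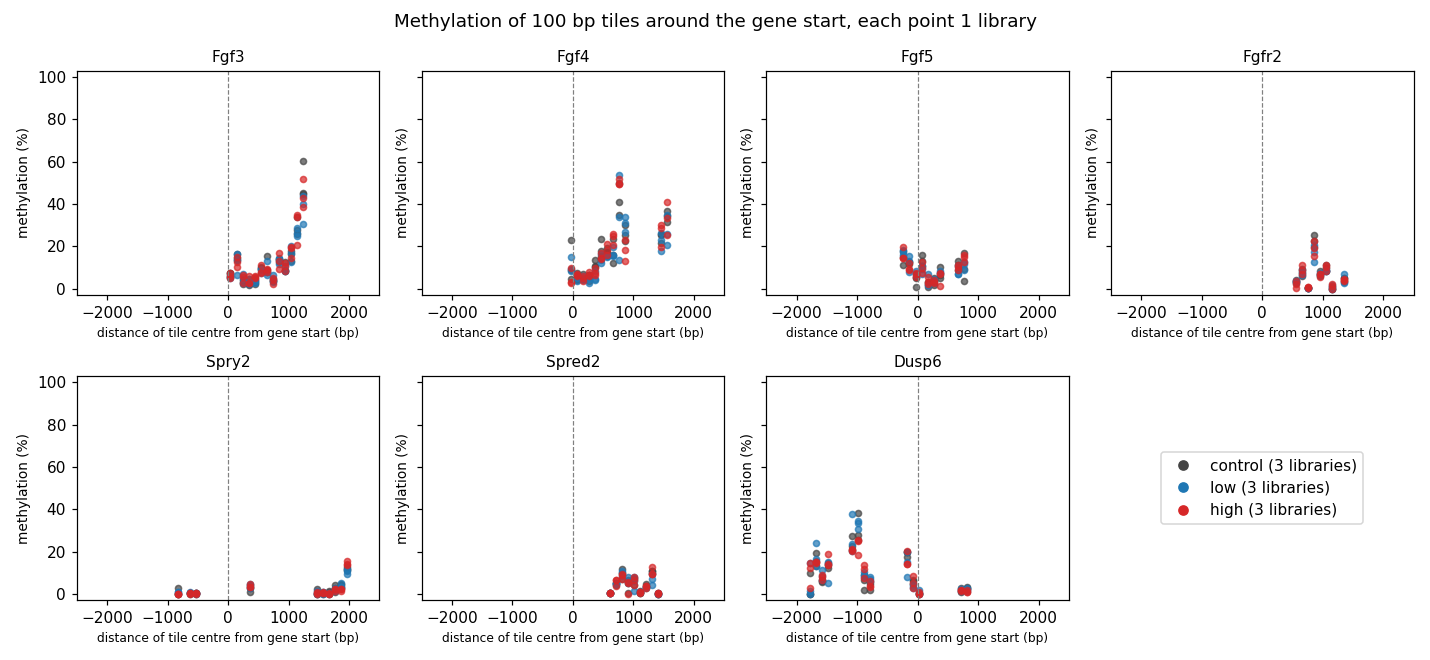
Methylation (%) of 100 bp tiles by distance of the tile centre from the RefSeq gene start (bp), for the 7 members with a start in the reference; each point is 1 of 9 libraries, coloured by group. Points near the start are mostly low, with gene means within 1 kb of 1.17% to 15.3%, and the colours overlap.

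Some single tiles at the ligand genes had groups that did not overlap, by small amounts. The tile on the Fgf5 start (chr5:98254101-98254200, inside the printed window) was at 0.862, 4.84 and 5.65% in controls, 8.33, 6.49 and 7.04% in low, and 7.39, 5.70 and 7.14% in high. The lowest control sets much of that gap, and the test across all tiles did not call it (3.51 points for low against control, limma adjusted p = 0.892). A tile inside Fgf4 (chr7:144861701-144861800) was at 13.5, 10.5 and 10.4% in controls, 8.16, 4.33 and 4.37% in low, and 7.26, 6.28 and 9.84% in high. All 6 libraries of the low and high groups lay below the 3 controls there, by -5.88 points in low (adjusted p = 0.775) and -3.71 points in high (adjusted p = 1). Of the 12 Fgf4 tiles, 5 had high and low groups that did not overlap, against 9.56% of all tiles. All 5 lay within 1 kb of the start, and tiles so close may not be independent. In high, 4 were higher and 1 lower, against 4.8% and 4.76% of all tiles. The 1 lower tile (chr7:144862201-144862300) was at 18.5, 23.01 and 13.01% in high against 33.7, 31.1 and 26.6% in low, with controls at 25.4, 22.4 and 30.0%, overlapping both. The other 4 differed by 1.76 to 6.73 points and had an adjusted p of 1 each in limma. The widest of them (chr7:144862001-144862100) was at 25.1, 25.6 and 20.7% in high against 15.3, 19.9 and 16.1% in low, with controls at 23.5, 15.9 and 12.3%. At Fgf8, the tile chr19:45743201-45743300 was at 7.32, 6.22 and 5.97% in controls, 7.66, 7.35 and 10.2% in low, and 4.91, 4.46 and 5.48% in high. Neither this tile nor the lower Fgf4 tile passed the test (limma adjusted p = 0.947 and 0.927 for high against low).

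Averaged over the 13 tiles of Fgf3, low was below control, at 10.8, 12.3 and 12.8% against 14.1, 13.1 and 12.9%. The widest part of that came from the tile chr7:144839801-144839900, at 60.3, 45.1 and 44.9% in controls and 30.4, 39.8 and 43.6% in low. Its adjusted p was 0.939 in limma. Over the 19 tiles of Spry4, low was above control instead, at 34.3, 34.7 and 33.3% against 30.4, 32.4 and 32.6%. Over the 21 tiles of Fgfr1, high was at 37.2, 36.8 and 36.6%, just above low at 36.6, 35.2 and 35.6%, with controls at 36.8, 35.7 and 36.8%. These gene means are descriptions that were not tested, and the nearest libraries of the groups were close, at 12.8 and 12.9% for Fgf3.

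The member tile with the smallest p lay inside Spred2, the gene whose expression hardly moved. The tile chr11:19965101-19965200, 40.7 kb from the gene start, was at 71.2, 75 and 73.7% in controls, 51.9, 55.9 and 58.8% in low, and 76.2, 73.5 and 78.3% in high. All 3 low libraries were thus below all 6 others, while control and high overlapped. The difference was -17.8 points (SE 2.07) for low against control and 20.5 points (SE 2.07) for high against low. By p it ranked 19 and 5 among 141251 tiles, and it was not called in either (limma adjusted p = 0.384 and 0.494). Leaving out 1 library at a time gave -19.4 to -16.0 points for low against control. The nearest tiles did not share the pattern. The tile starting at 19965301 was at 67.5, 60.9 and 69.4% in controls, 71.1, 60.8 and 73.1% in low and 57.4, 69.7 and 65.6% in high. The tile starting at 19965401 was at 56.4, 55.7 and 55.3%, 53.0, 61.7 and 62.1%, and 37.0, 48.5 and 61.2%.

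**Figure D5:**
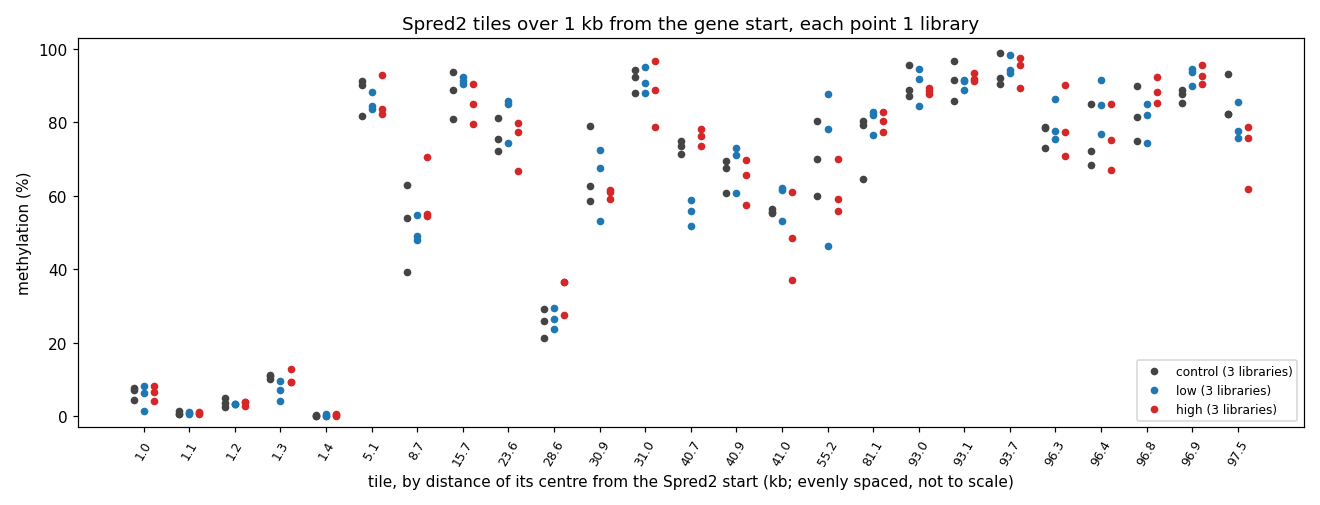
Methylation (%) of the 25 Spred2 tiles over 1 kb from the gene start, by distance of the tile centre (kb, evenly spaced); each point is 1 library, 3 per group. At 40.7 kb the 3 low libraries sit at 51.9 to 58.8% and the other 6 at 71.2 to 78.3%, while at the tiles beside it the groups overlap.

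At Spry2 and Dusp6, single tiles also had groups that did not overlap. A Spry2 tile (chr14:105894801-105894900) was at 11.5, 11.9 and 12.5% in controls, 10.6, 11.9 and 9.62% in low, and 15.6, 14.1 and 13.6% in high, so the high libraries were on top (3.74 points over low, limma adjusted p = 0.872). A Dusp6 tile upstream of the start (chr10:99262201-99262300) was at 38.1, 27.8 and 25.4% in controls, 34.6, 33.3 and 30.7% in low, and 18.3, 24.8 and 25.6% in high, with high below low (adjusted p = 1).

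Over all member tiles, 0 were called in any of the 3 comparisons in limma, as were 0 of the 141251 tiles (0.0% called in each). At an unadjusted p under 0.05 there were 25, 20 and 26 of the 431 tiles, where 5.49%, 4.44% and 4.71% of all tiles reached it. Groups did not overlap for 45, 45 and 53 of the 431, or 10.4%, 10.4% and 12.3%, against 9.53%, 9.23% and 9.56% of all tiles. In the 159 tiles of the RefSeq spans they did not overlap for 19, 16 and 21, with 9 higher and 10 lower in low against control, 7 and 9 in high against control, and 14 and 7 in high against low. Over all tiles the same percentages were 5.26% and 4.27%, 5.16% and 4.07%, and 4.8% and 4.76%. In high against low the 14 higher tiles are thus 8.81% of the 159, above the 4.8% of all tiles, and 4 of the 14 are the Fgf4 tiles within 1 kb of each other. The other shares were 4.40% to 6.29%.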

How the data were processed

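An RNA sequencing table of offspring at embryonic day 7.5 and an RRBS table whose columns give no tissue were used. Expression values were deposited by the authors as CPM (counts scaled by library), per the file headers. The 3 lines without a gene (27.9 to 29.8% of a column) were left out. Methylation was deposited by the authors as percent per 100 bp tile, per the file headers, with no coverage column. The submitters' processing notes name, without their roles, the builds mm8 and mm10, the aligners Bowtie 0.12.2, TopHat, Bowtie2 and Bismark, and also edgeR, SAMtools, methylKit and Trim Galore. Tiles overlapping RefSeq (GRCm38.p6) promoters had a mean methylation of 7.84%, against 33.9 to 37.4% after shifting the promoters, so mm10 coordinates were used.

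Columns were mapped to groups by name. Genes with at least 1 CPM in 2 libraries were tested in R 4.3.3 with limma 3.58.1 (all 3 groups in 1 fit, mean-variance trend) on log2(CPM + 1), the pseudocount being 1; tiles were tested on percent without a trend. Adjusted p-values are Benjamini-Hochberg values over all genes or tiles, with a threshold of 0.05. The fit was tested on simulated data. Alternatives were the filter, pseudocount, scaling, trend, window, replicate block, 2-group fits and each library left out; RefSeq spans were added after the data were seen. Count models and a coverage minimum were planned but not run, since the tables hold neither counts nor coverage.

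The members and the gene lists were chosen with earlier results of these data known. Named were the 10 members; up to 3 genes of each pathway list by smallest unadjusted p; for each ligand and Dusp6 the 3 genes of highest r; and each member's tile nearest the start and those of smallest p with groups not overlapping. Of these tiles, some are printed. The neighbours of the Spred2 tile and the Fgf4 tile at 144862001 are given outside that rule, after their values were seen. So are Fgfbp1, Tbx6 and the single marker genes, Plet1 and Prl3d1 among them.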

Additional observations from a re-analysis of the deposited data

How the results depend on the processing

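Of 240 member differences under another filter, pseudocount, scaling, trend, fit of 2 groups or replicate block, 237 kept their direction and side of the threshold. The other 3 were near 0 and changed sign: Dusp6 in low against control was -0.0050 with quantile normalization and -0.00062 with trimmed mean scaling, and Fgf3 in high against control was -0.0012 with quantile normalization. With a library left out, 13 of 180 changed sign. These gave -0.31 to 0.63 for Fgf5, -0.30 to 0.16 for Fgf8, -0.059 to 0.21 for Spry2, -0.11 to 0.34 for Spry4 and -0.19 to 0.19 for Dusp6 in low against control. In high against control they gave -0.11 to 0.18 for Fgf3 and -0.24 to 0.13 for Fgf4, and in high against low -0.000071 to 0.11 for Spred2. The count of members called ranged from 0 to 1 in low against control, 0 to 0 in high against control and 0 to 5 in high against low, the highest without low 2, where fewer samples were in the fit. Same-numbered libraries correlated between -0.07 and 0.09 in their expression deviations. With 2 libraries per group the deviations mirror each other, so this check cannot tell whether equal numbers mark a shared source. With the number as a replicate block 0 members and 0 member tiles were called in each comparison. Under every alternative run, 0 member tiles were called. With 2 expression libraries per group the spread is poorly known, and without coverage the counting error of a tile is unknown. Count models and a coverage minimum were not run.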

Other observations

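The expression table's Fgfr2 span reached far beyond the RefSeq gene, and 265 methylation tiles fell in that stretch. Their mean was 32.2, 32.2 and 32.8% in controls, 32.4, 32.4 and 32.8% in low, and 32.4, 32.6 and 33.1% in high. The groups did not overlap for 24, 27 and 32 of the 265 in low against control, high against control and high against low, or 9.06%, 10.2% and 12.1%, against 9.53%, 9.23% and 9.56% of all tiles. None was called in limma, and 15, 8 and 17 had an unadjusted p under 0.05. By the table's coordinates 21 genes spanned more than 1 Mb, Fgfr2 among them.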
